A study of Mus musculus with 83 samples.

Results

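The small RNA libraries held short fragments of 70 H/ACA box small nucleolar RNAs (snoRNAs) and small Cajal body RNAs (scaRNAs), chosen from the 1074 features of the table whose name begins with snora or scarna. A feature was kept when it reached 10 RPM, its reads scaled to 1 common library total, in at least 3 of the 36 libraries of the cell time course, with copies at different positions kept apart. The choice used the level in these 36 libraries and not the difference between genotypes, and 0 of the 70 passed through the libraries of 1 group only. The 4 members nearest the cut-off, judged by the level that at least 3 libraries reached, were SNORA70 on chromosome 2 at 11.5 RPM, SNORA38 at 11.4 RPM, SNORA63 starting at 23110456 at 10.4 RPM and SNORA5 starting at 6519811 at 10.2 RPM. Just outside stood SNORA70 on chromosome 6 at 9.196 RPM, Snora78 at 8.84 RPM, SNORA13 at 8.81 RPM and SNORA57 at 8.24 RPM. Of all 1074 features, 825 had no read in the 36 libraries.

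The labels name the cells as E14 mouse embryonic stem cells (ESCs). The methods of the study describe instead ESCs of strain C57BL/6, with Dnmt1 flanked by loxP sites on both alleles and a Cre recombinase that becomes active with tamoxifen, and do not name E14. Dnmt1 is the enzyme that copies DNA methylation to the new strand after replication. Control and Dnmt1 KO libraries, 3 of each, were made from total RNA at days 1, 3, 6, 9, 11 and 25 after induction. Immunoprecipitates of AGO2, the Argonaute protein that binds microRNAs, gave 4 control and 4 Dnmt1 KO libraries. The results section of the paper places these at day 9, while its methods and the labels give no day. There were also 4 total RNA libraries of primordial germ cells (PGCs), 1 each of females and males at the stages E13.5 and E14.5, tagged as ESC in the labels but titled as PGC, and 1 control and 1 Dnmt1 KO library titled "none". The genotype tag contradicted the title for the AGO2 libraries, for those titled "none" and for libraries of days 1 to 9 with an R1 suffix. The groups follow the titles, so every AGO2 result by genotype rests on the titles. Nothing states that replicates came from separate cultures, so p-values measure the spread between these libraries only. Because the reads kept were 20 to 24 bases long, every value is a level of fragments and not of the whole snoRNA.

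H/ACA box snoRNAs fold into hairpins joined by a hinge, and together with dyskerin and its partner proteins they direct the conversion of uridine to pseudouridine in ribosomal RNA. scaRNAs do related work on spliceosomal RNAs in the Cajal body, and some of them belong to the C/D box class, which directs ribose methylation, or combine both classes. Most are cut from introns of host genes, often genes of ribosomal proteins and of translation. Some are also cut by Dicer into pieces that load into Argonaute proteins like microRNAs.

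Among the 70 members were 57 snoRNAs and 13 scaRNAs, of which 7 scaRNAs were of the H/ACA class, 3 of the C/D class and 3 of mixed class. An annotated gene enclosed 67 of them, 65 on the same strand, with 48 lying in an intron and 19 overlapping an exon. Snora73a and Snora73b lie on the strand opposite to Gm17300, so it is not their host. They are still counted among the exon overlaps and under other genes. Ribosomal protein genes hosted 15 members, small nucleolar RNA host genes (Snhg) 7, translation factor genes 6 and other genes 39. The members spanned 70 to 414 bases with a median of 135.

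The sequences below show the boxes that define the class, read from the NCBIM37 genome on the strand of the gene. Capitals mark matches to the hinge box, ANANNA, in the middle of the RNA, and the last ACA. Snora16a is shown as the most abundant member per length, Snora52 as the second, and Snora41 because of its level in AGO2 immunoprecipitates. Snora16a lies at chr4:131865380-131865515 on the plus strand in an intron of Snhg12, Snora52 at chr7:148634702-148634838 on the plus strand overlapping an exon of Rplp2, a gene of a ribosomal stalk protein, and Snora41 at chr1:63225578-63225709 on the plus strand in an intron of Eef1b2, a gene of a translation elongation factor.
Snora16a: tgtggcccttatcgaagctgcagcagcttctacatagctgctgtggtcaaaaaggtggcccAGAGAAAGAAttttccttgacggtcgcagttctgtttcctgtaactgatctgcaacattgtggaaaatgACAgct
Snora52: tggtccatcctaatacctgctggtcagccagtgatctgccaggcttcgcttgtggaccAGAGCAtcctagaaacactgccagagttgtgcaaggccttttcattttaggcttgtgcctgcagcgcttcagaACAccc
Snora41: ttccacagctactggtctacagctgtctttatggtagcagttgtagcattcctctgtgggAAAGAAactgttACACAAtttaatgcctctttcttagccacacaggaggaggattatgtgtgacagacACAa

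On the gene's strand, 58 of the 70 members had an ACA with at most 5 bases after it, 65 had an ANANNA in their middle and 56, or 80.0%, had both. Windows of the same length 1000 bases to either side had both in 6 of 140 cases, or 4.29%, and the snora and scarna features that were not members had both in 542 of 1004, or 54.0%. The motifs are short and the matches are descriptions of letters.

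The members that carry a microRNA are shown next, because they take a large share of the members' AGO2 signal described further on. Of 1738 mature mouse microRNA sequences of RefSeq (GRCm38.p6), searched by letters alone, matches lay inside 6 members. Capitals mark the bases of the mature microRNAs. Snora36b, at chr1:187066786-187066917 on the plus strand in an intron of Rab3gap2, holds both arms of miR-664. Scarna3a, at chr1:161270414-161270553 on the plus strand in an intron of Rfwd2, holds both arms of miR-1843b. Scarna3b, at chr12:81492600-81492738 on the minus strand in an intron of Dcaf5, holds both arms of miR-1843a, with miR-1843b-5p shifted by 1 base on the first of them. SNORA58, at chr12:88778632-88778767 on the minus strand in an intron of Alkbh1, holds both arms of miR-3068. SCARNA16, at chr11:116938557-116938749 on the plus strand overlapping an exon of 2810008D09Rik, holds both arms of miR-6516, and Snora34, at chr15:98350147-98350284 on the minus strand in an intron of 2310037I24Rik, holds miR-1291.
Snora36b: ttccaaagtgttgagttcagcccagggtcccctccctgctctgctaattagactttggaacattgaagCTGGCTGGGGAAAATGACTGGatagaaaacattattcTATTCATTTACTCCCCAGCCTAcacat
Scarna3a: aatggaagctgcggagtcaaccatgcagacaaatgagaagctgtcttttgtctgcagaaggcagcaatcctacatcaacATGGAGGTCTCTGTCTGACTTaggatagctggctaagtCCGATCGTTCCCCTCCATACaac
Scarna3b: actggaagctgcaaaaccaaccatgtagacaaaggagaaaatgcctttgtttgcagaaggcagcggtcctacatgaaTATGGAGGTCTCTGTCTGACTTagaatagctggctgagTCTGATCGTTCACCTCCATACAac
SNORA58: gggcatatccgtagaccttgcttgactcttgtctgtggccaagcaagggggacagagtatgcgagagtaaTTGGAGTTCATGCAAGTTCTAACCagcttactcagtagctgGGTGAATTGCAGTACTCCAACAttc
SCARNA16: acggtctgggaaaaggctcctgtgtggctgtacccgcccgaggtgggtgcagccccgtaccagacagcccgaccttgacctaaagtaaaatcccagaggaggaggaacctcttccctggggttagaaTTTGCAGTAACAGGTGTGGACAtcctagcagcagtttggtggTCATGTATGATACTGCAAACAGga
Snora34: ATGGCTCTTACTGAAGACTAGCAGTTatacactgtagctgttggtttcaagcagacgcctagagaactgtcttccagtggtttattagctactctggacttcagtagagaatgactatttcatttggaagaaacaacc

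The mature sequences of the microRNAs in Snora36b, Scarna3a and Scarna3b are given with the seed, bases 2 to 8, in capitals. The seed of miR-1843a-5p is that of miR-1843b-5p shifted by 1 base, and the remaining seeds differ from each other.
miR-664-5p: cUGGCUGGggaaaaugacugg
miR-664-3p: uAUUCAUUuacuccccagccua
miR-1843b-5p: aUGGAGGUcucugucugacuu
miR-1843a-5p: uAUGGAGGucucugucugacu
miR-1843b-3p: cCGAUCGUuccccuccauac
miR-1843a-3p: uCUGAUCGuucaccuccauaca

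The deposited values did not separate microRNAs from these members, since no member overlapped a microRNA feature of the table. Of the 70 members, 10 had only 20-base stretches found once in the genome, 14 had under 50% of such stretches, and 9 shared a stretch with another member (Snora73a, Snora73b and SNORA73; both SNORA29; both SNORA70; Scarna3a and Scarna3b). Levels of those members are uncertain to the extent that the counting split reads between copies. For Snora41, 41.6% of its 20-base stretches were unique.

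Library totals ran from 870481 to 6239009 reads at days 1 to 11, from 521066 to 815523 at day 25 and from 1152390 to 25423038 in the AGO2 libraries. All members together took 0.351% to 0.651% of the reads at days 1 to 11, 0.327% to 0.367% at day 25 and 0.0198% to 0.0321% of the AGO2 libraries. C/D box snoRNAs, the sister class, took 13.6% to 18.1% at days 1 to 11. A level of 3 reads corresponded to at most 3.45 RPM at days 1 to 11 and to 3.68 to 5.76 RPM at day 25, so day 25 values of the low members rest on few reads. Such limits and the intervals below cover counting error only.

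**Figure D1:**
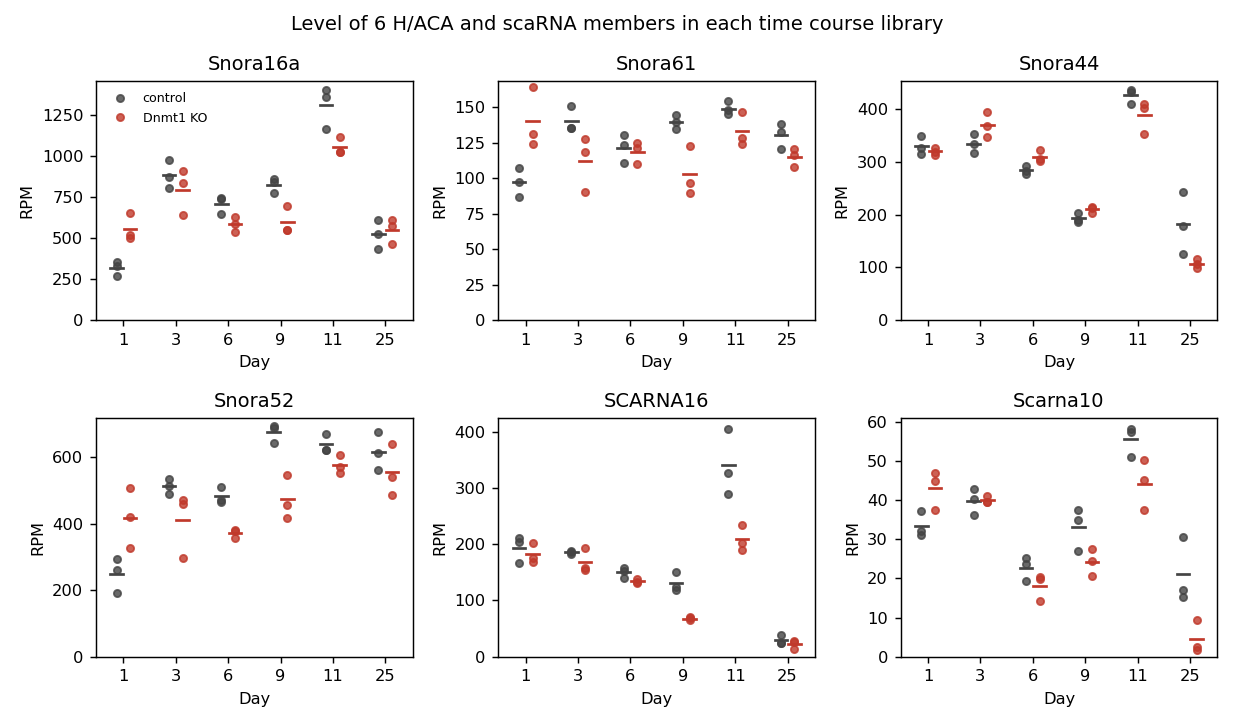
Level in RPM (linear axis from 0) of Snora16a, Snora61, Snora44, Snora52, SCARNA16 and Scarna10, 1 panel each, by day, with 1 point per control or Dnmt1 KO library. Snora16a sits above the control at day 1, with 499 to 652 RPM in the Dnmt1 KO libraries against 269 to 354, and below it at day 9, with 551 to 697 against 777 to 861.

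Snora16a had the highest mean level per length, 5340 RPM per kilobase of span (RPKM) over the 36 libraries. Snora52 followed at 3639 RPKM, Snora44 at 2236 RPKM, SNORA18 at 1784 RPKM and SCARNA14, the first of the scaRNAs, at 1585 RPKM. The 5 members with the highest RPM took between 37.9% and 55.0% of the members' summed RPM in a library, with a median of 45.5%. Of the 70 members, 32 reached 10 RPM in all 36 libraries. The later scaRNAs in the order were Scarna6 at 970 RPKM, SCARNA16 at 783 RPKM, Scarna17 at 745 RPKM, Scarna9 at 711 RPKM and SCARNA6 at 476 RPKM, followed by SCARNA11 at 168 RPKM, SCARNA1 at 131 RPKM, Scarna3a at 111 RPKM, Scarna3b at 109 RPKM, Scarna10 at 97.4 RPKM, Scarna2 at 64.0 RPKM and SCARNA23 at 57.8 RPKM.

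The first question was how the fragments differed between Dnmt1 KO and control cells at each day. At day 1 10 of the 70 members were higher in Dnmt1 KO cells and 0 lower (adjusted p under 0.05 in limma with Benjamini-Hochberg adjustment over all 2582 features tested), while 4.03% of all features were called, 2.98% higher and 1.05% lower. At day 3 1 member was higher and 0 lower, against 6.08% called among all features (4.18% higher, 1.90% lower). The direction then turned, with 0 higher and 11 lower at day 6 (23.7% of all features called, 11.6% lower), 0 higher and 11 lower at day 9 (18.9% called, 9.99% higher and 8.91% lower) and 0 higher and 3 lower at day 11 (8.64% called, 5.93% higher and 2.71% lower). At day 25 9 members were higher and 7 lower, where 35.8% of all features were called, 16.7% higher and 19.1% lower. Over the 6 days 34 of the 70 members were called on at least 1 day, where 51.6% of all features were, and 36 were called on none. In bulk samples such as these, fewer cells of a type and less RNA per cell cannot be told apart.

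The median log2 difference of the members, Dnmt1 KO over control on the log2(RPM + 1) scale, was 0.21 at day 1, -0.11 at day 3, -0.29 at day 6, -0.29 at day 9, -0.20 at day 11 and 0.06 at day 25. Over all features the medians were 0.02, -0.04, 0.09, 0.00, -0.07 and -0.04 on the same days. C/D box snoRNAs had medians of 0.03, -0.08, -0.30, -0.29, 0.01 and 0.22, with 62 of 135 lower at day 6, 54 lower at day 9 and 54 higher at day 25. Members and C/D box snoRNAs thus had nearly equal medians at days 6 and 9 and unequal ones at days 1, 11 and 25, a difference that was not tested. The summed share of the members in the reads was 0.425% to 0.473% in Dnmt1 KO libraries against 0.351% to 0.375% in controls at day 1, and 0.356% to 0.409% against 0.446% to 0.489% at day 9.

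**Figure D2:**
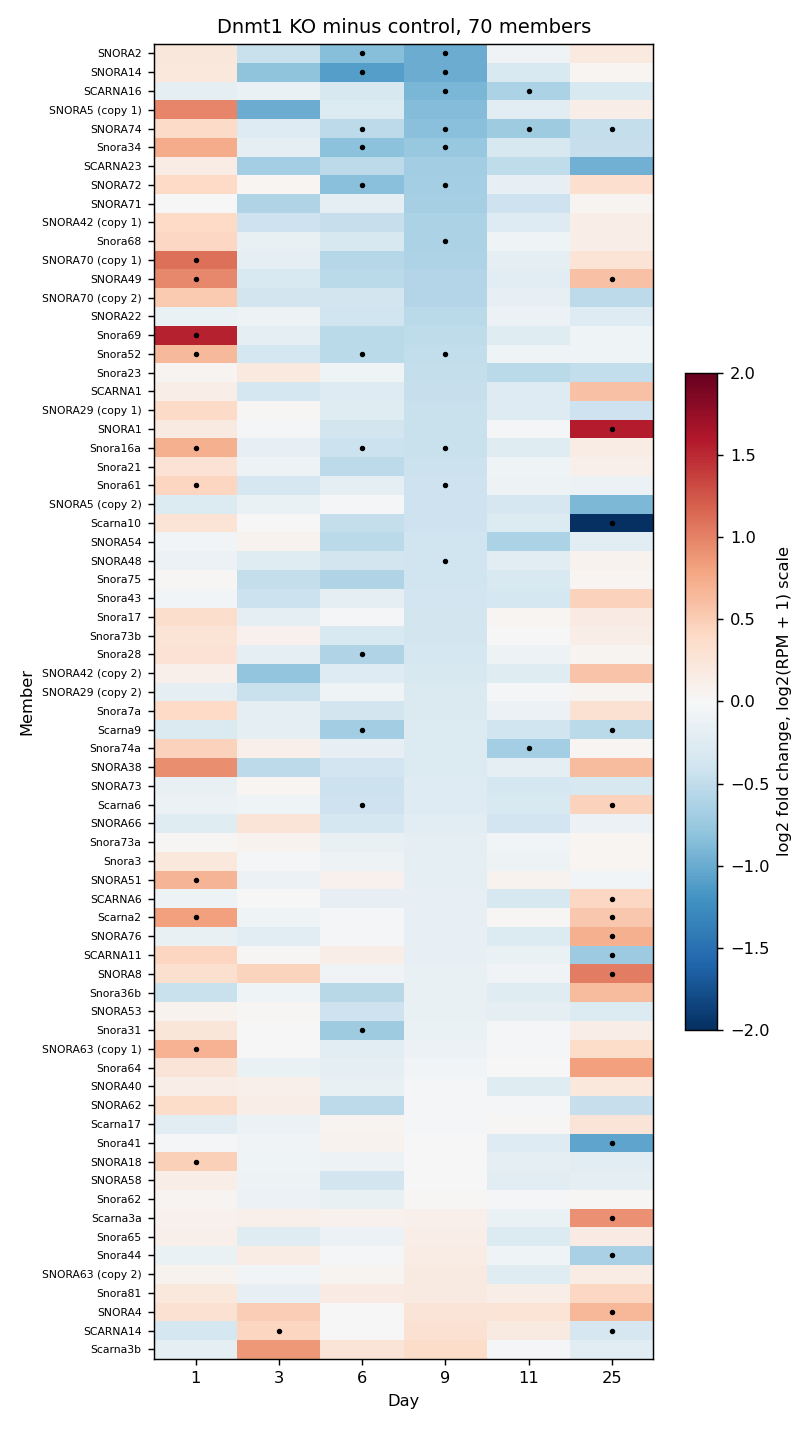
Log2 difference between Dnmt1 KO and control libraries (limma, log2(RPM + 1) scale, n = 3 per group) for the 70 members, 1 row per member and 1 column per day, with called differences marked. The day 1 column holds 10 higher calls, the day 6 and day 9 columns 11 lower calls each, and the day 25 column 9 higher and 7 lower.

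At day 1, when the rise was seen, Snora16a measured 354, 332 and 269 RPM in the 3 control libraries and 652, 499 and 519 RPM in the Dnmt1 KO libraries. All 3 Dnmt1 KO libraries lay above all 3 controls, a log2 difference of 0.71 (SE 0.12, limma adjusted p = 1.56e-04). Snora52 measured 295, 260 and 193 RPM in controls and 507, 421 and 327 RPM in Dnmt1 KO cells, again without overlap (0.65, SE 0.13, limma adjusted p = 1.64e-03). Snora69, hosted by the ribosomal protein gene Rpl39, measured 9.69, 10.6 and 1.15 RPM in controls and 25.6, 18.8 and 13.6 RPM in Dnmt1 KO cells, where the lowest control rests on 1 read (1.54, SE 0.32, limma adjusted p = 2.20e-03). The other members called higher were SNORA70 on chromosome 16 (1.1031), SNORA49 (0.96), Scarna2 (0.82), SNORA63 starting at 23111374 (0.69), SNORA51 (0.68), SNORA18 (0.48) and Snora61 (0.43). All 10 had ranges that did not overlap, and 25 members in all lay wholly above the controls and 0 wholly below, against 20.3% of all features with ranges apart in either direction. Without control replicate 3 the number called fell to 1 and without Dnmt1 KO replicate 1 to 4, so the count at day 1 rests on single libraries. The share of spliceosomal RNA fragments moved with the genotype at day 1, 0.389% to 0.456% in Dnmt1 KO libraries against 0.218% to 0.289% in controls, and its part in the result was not tested.

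At day 3 the members showed little difference, and Snora16a measured 975, 805 and 870 RPM in controls and 642, 908 and 834 RPM in Dnmt1 KO cells. SCARNA14 was the 1 member called, at 280, 287 and 290 RPM in controls and 387, 373 and 391 RPM in Dnmt1 KO cells (0.43, SE 0.13, limma adjusted p = 0.0414). Its ranges did not overlap, and 3 members lay wholly above and 8 wholly below the controls, where 26.3% of all features had ranges apart. SCARNA14 lost the call when any 1 of the 6 libraries was left out (limma adjusted p = 0.0510 to 0.143), and the 2 and 3 members called without Dnmt1 KO replicates 2 and 3 were all lower. The summed mesenchymal microRNAs were at 15501 to 17839 RPM in Dnmt1 KO libraries against 10331 to 10698 RPM in controls, and their part in the result was not tested.

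At day 6 Snora16a and Snora52 were lower in Dnmt1 KO cells, while the next 3 members by RPKM were not. Snora44 measured 284, 278 and 293 RPM in controls and 324, 305 and 302 RPM in Dnmt1 KO cells, SNORA18 149, 179 and 182 against 158, 186 and 185 RPM, and SCARNA14 203, 238 and 224 against 245, 250 and 245 RPM, of which Snora44 and SCARNA14 lay wholly above the controls without passing the test. Snora16a measured 649, 738 and 742 RPM in controls and 539, 589 and 630 RPM in Dnmt1 KO cells (-0.44, SE 0.12, limma adjusted p = 5.56e-03), with the highest Dnmt1 KO library under the lowest control. It lost this call with library totals, scaled to C/D box snoRNAs and without the filter on low values. The call was also lost with R1-suffixed libraries and without control replicate 2. Under these settings the limma adjusted p was 0.0693 to 0.351. Snora52 measured 471, 467 and 509 RPM in controls and 357, 383 and 377 RPM in Dnmt1 KO cells (-0.53, SE 0.13). SNORA72 measured 41.5, 45.0 and 44.8 RPM in controls and 23.998, 30.3 and 26.6 RPM in Dnmt1 KO cells, well apart (-0.84, SE 0.17, limma adjusted p = 2.32e-04). SNORA14 had the largest fall among those called, from 26.5, 18.2 and 23.2 RPM to 10.3, 14.2 and 9.21 RPM (-1.11, SE 0.28, limma adjusted p = 2.38e-03). The remaining members called lower were SNORA2 (-0.86), Snora34 (-0.82), Snora31 (-0.72), Scarna9 (-0.69), Snora28 (-0.60), SNORA74 (-0.52) and Scarna6 (-0.42). The 7 members called lower at both day 6 and day 9 were Snora16a, Snora52, SNORA72, SNORA14, Snora34, SNORA2 and SNORA74. Ranges lay apart for 7 members above and 14 below the controls at day 6, against 44.9% of all features. The summed mesenchymal microRNAs were at 11242 to 12515 RPM in Dnmt1 KO libraries against 6132 to 7144 RPM in controls, and spliceosomal RNA fragments at 0.350% to 0.424% against 0.468% to 0.579%; their part in the result was not tested.

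At day 9 35 members lay wholly below the controls and 1 wholly above, where 44.2% of all features had ranges apart in either direction. Snora16a measured 777, 840 and 861 RPM in controls and 552, 697 and 551 RPM in Dnmt1 KO cells (-0.44, SE 0.12, limma adjusted p = 6.25e-03). It lost this call when scaled to C/D box snoRNAs and without the filter on low values. The call was also lost without Dnmt1 KO replicate 1, control replicate 2 or control replicate 3. Under these settings the limma adjusted p was 0.0602 to 0.471. SNORA74, also known as U19, measured 31.7, 35.3 and 32.2 RPM in controls and 19.7, 19.2 and 14.6 RPM in Dnmt1 KO cells, with no overlap (-0.84, SE 0.16, limma adjusted p = 1.43e-04). SCARNA16 measured 119, 124 and 150 RPM in controls and 69.8, 68.6 and 65.1 RPM in Dnmt1 KO cells, with no overlap (-0.91, SE 0.18, limma adjusted p = 1.61e-04). Snora68 measured 109, 110 and 123 RPM in controls and 72.7, 79.4 and 64.4 RPM in Dnmt1 KO cells (-0.63, SE 0.16, limma adjusted p = 2.86e-03). The other members called lower were SNORA2 (-0.997), SNORA14 (-0.99), Snora34 (-0.75), SNORA72 (-0.67), Snora52 (-0.49), Snora61 (-0.42) and SNORA48 (-0.40). The 11 calls of day 6 became 2, both lower, when libraries were scaled to C/D box snoRNAs in place of all features, and those of day 9 became 6, with 2 higher and 4 lower; leaving out single libraries gave 7 to 11 and 5 to 11 calls, the lowest without control replicate 2 on either day. Summed levels of 5 microRNAs of mesenchymal cells moved with the genotype at day 9, 20919 to 22910 RPM in Dnmt1 KO libraries against 10984 to 14913 RPM in controls, as did the share of spliceosomal RNA fragments, 0.361% to 0.430% against 0.567% to 0.616%. Their part in the result was not tested.

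At day 11 3 members were called. SNORA74 measured 40.9, 41.02 and 49.02 RPM in controls and 23.1, 25.8 and 26.3 RPM in Dnmt1 KO cells (-0.72, SE 0.16, limma adjusted p = 1.80e-03). Snora74a, which lies with SNORA74 in the host gene Snhg4, measured 52.0, 52.0 and 43.7 RPM in controls and 29.8, 28.6 and 28.7 RPM in Dnmt1 KO cells (-0.68, SE 0.19, limma adjusted p = 0.0137). SCARNA16 measured 405, 290 and 327 RPM in controls and 189, 234 and 202 RPM in Dnmt1 KO cells (-0.64, SE 0.18, limma adjusted p = 0.0141). None of the 3 overlapped between genotypes, and 30 members lay wholly below the controls and 0 above, against 36.4% of all features with ranges apart. Snora16a reached its highest levels here, 1364, 1167 and 1402 RPM in controls and 1026, 1026 and 1119 RPM in Dnmt1 KO cells, which did not overlap but did not pass the test (-0.25, SE 0.12, limma adjusted p = 0.265). Leaving out single libraries gave 1 to 2 calls. Summed mesenchymal microRNAs were at 12417 to 14632 RPM in Dnmt1 KO libraries against 10596 to 11209 RPM in controls. Summed microRNAs of ESCs were at 110644 to 118488 RPM against 125999 to 128558 RPM. The part of either set in the result was not tested.

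At day 25 Scarna10, the mixed class scaRNA also known as U85, fell from 30.5, 15.4 and 17.2 RPM in controls to 1.61, 2.56 and 9.47 RPM in Dnmt1 KO cells (-2.12, SE 0.28, limma adjusted p = 6.11e-08). These levels stood on 17, 8 and 14 reads in controls and 1, 2 and 5 reads in Dnmt1 KO cells. At days 1 to 11 the libraries of both genotypes held 14.3 to 58.2 RPM. Snora41 fell from 25.099, 26.9 and 27.0 RPM to 6.43, 15.4 and 15.2 RPM (-1.05, SE 0.20, limma adjusted p = 7.30e-05). Snora44 fell from 244, 178 and 126 RPM to 98.1, 106 and 116 RPM, and its controls differed among themselves more than its Dnmt1 KO libraries (-0.66, SE 0.13, limma adjusted p = 1.67e-04). Further lower calls were SCARNA11 (-0.72), Scarna9 (-0.54), SNORA74 (-0.48) and SCARNA14 (-0.34). SNORA74 was therefore called lower on 4 days, 6, 9, 11 and 25. The SE at day 25 comes from the fit of the whole time course, which includes the deeper libraries of days 1 to 11. It therefore does not measure the spread at day 25 alone. Fitted on day 25 alone, Snora41 (-1.02, limma adjusted p = 0.0831) and Snora44 (-0.62, limma adjusted p = 0.0868) lost the call.

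Among the members higher at day 25, Scarna6 measured 267, 280 and 341 RPM in controls and 408, 386 and 368 RPM in Dnmt1 KO cells, without overlap (0.46, SE 0.11, limma adjusted p = 8.41e-04). Scarna3a measured 7.17, 5.76 and 7.36 RPM in controls and 14.47, 11.5 and 13.3 RPM in Dnmt1 KO cells (0.92, SE 0.19, limma adjusted p = 2.15e-04). SNORA1 measured 8.96, 0 and 4.91 RPM in controls and 8.04, 10.2 and 13.3 RPM in Dnmt1 KO cells, groups that overlapped although the test passed (1.57, SE 0.37, limma adjusted p = 8.57e-04), and it rested on 0 to 8 reads a library. The others were SNORA8 (1.02), SNORA76 (0.71), SNORA4 (0.66), SNORA49 (0.59), Scarna2 (0.53) and SCARNA6 (0.41). Only 3 members lay wholly above and 7 wholly below the controls, against 30.8% of all features with ranges apart. When libraries were scaled to C/D box snoRNAs the calls at day 25 split into 3 higher and 17 lower, and when day 25 was fitted alone 2 members were called. In that fit Scarna3a (0.96, limma adjusted p = 0.109) and SNORA1 (1.63, limma adjusted p = 0.170) lost the call. Summed levels of 7 microRNAs of ESCs also differed at day 25, 136240 to 141175 RPM in Dnmt1 KO libraries against 175306 to 208803 RPM in controls. Their ranges lay apart on every other day too. Dnmt1 KO libraries were higher at days 1, 3 and 6, with 130346 to 139059 RPM against 110501 to 114233 RPM at day 6. They were lower at days 9 and 11. Summed mesenchymal microRNAs were at 1247 to 1292 RPM against 954 to 1050 RPM at day 25. The part of either set in the result was not tested.

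Averaged over all 6 days, 1 member was higher in Dnmt1 KO cells and 14 lower, where 27.9% of all features were called, 13.7% higher and 14.2% lower. SNORA4, hosted by Eif4a2, a translation initiation factor gene, was the member that was higher (0.33, SE 0.07, limma adjusted p = 9.80e-05). At day 3 it measured 93.6, 90.5 and 97.7 RPM in controls and 146, 127 and 123 RPM in Dnmt1 KO cells, without being called on that day. At day 9 its groups overlapped, at 48.4 to 61.1 RPM in controls and 53.8 to 68.2 RPM in Dnmt1 KO cells. SNORA74 (-0.41, SE 0.07, limma adjusted p = 5.76e-06), SCARNA16 (-0.41, SE 0.07, limma adjusted p = 1.80e-05) and Scarna9 (-0.40, SE 0.07, limma adjusted p = 2.59e-05) led the lower members. The other 11 were Scarna10, SNORA14, SNORA48, SCARNA23, SNORA73, Snora34, SNORA22, Snora52, Snora41, Scarna6 and SNORA2. SNORA73, also known as U17, takes part in the cleavage of the ribosomal RNA precursor.

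The effect of Dnmt1 loss at day 25 differed from that at day 9 for 17 of the 70 members by an interaction test. Of these, 13 were more positive and 4 more negative at day 25. Among all 2582 features 25.8% were called, 329 more positive and 336 more negative. The share of members called was thus no higher than that of all features. Their lean towards more positive effects was not tested against the split of all features. Days 9 and 25 were compared because an earlier report on the same data gave snoRNA shares of opposite sign on them. The test is therefore no independent support. Scarna6 turned from 221, 228 and 239 RPM in controls and 191, 190 and 184 RPM in Dnmt1 KO cells at day 9 to the rise of day 25 (difference of effects 0.72, SE 0.15, limma adjusted p = 4.43e-04). SNORA72 (1.01, SE 0.24, limma adjusted p = 1.65e-03) and SNORA1 (2.02, SE 0.52, limma adjusted p = 3.46e-03) moved the same way. Scarna10 (-1.71, SE 0.39, limma adjusted p = 9.76e-04), Snora44 (-0.80, SE 0.19, limma adjusted p = 1.41e-03) and Snora41 (-1.04, SE 0.29, limma adjusted p = 6.01e-03) moved the other way. The C/D box snoRNAs had 75 more positive and 0 more negative of 135, and scaled to them the members' split became 1 and 8.

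Called in both directions over the days were 5 members, Snora16a, Snora52, Snora61, Scarna6 and SCARNA14. Members of 1 host moved together in some cases and not in others. Snora16a, Snora44 and Snora61 all lie in Snhg12, a non-coding host of snoRNAs, and Snora44 differed in sign from Snora16a and Snora61. At day 1 their log2 differences were 0.71, -0.14 and 0.43, and at day 9 they were -0.44, 0.15 and -0.42. At day 9 Snora44 measured 191, 186 and 203 RPM in controls and 203, 215 and 213 RPM in Dnmt1 KO cells, and Snora61 measured 135, 140 and 145 RPM in controls and 96.9, 123 and 89.9 RPM in Dnmt1 KO cells. The groups of Snora61 did not overlap, and those of Snora44 overlapped at 203 RPM. In Taf1d, which codes for a subunit of a factor that starts ribosomal RNA transcription, SNORA18, SNORA1 and SNORA8 had day 25 differences of -0.23, 1.57 and 1.02, while Scarna6 and SCARNA6 in the autophagy gene Atg16l1 had 0.46 and 0.41. Members in ribosomal protein genes had a median of 0.28 at day 1 (2 of 15 higher, with 2.98% of all features higher), -0.37 at day 6 (2 lower, with 11.6%), -0.26 at day 9 (3 lower, with 8.91%) and 0.10 at day 25 (0 called, with 35.8%), against medians over the members of 0.21, -0.29, -0.29 and 0.06.

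Time in culture was compared between day 25 and day 1 in control cells. Of the 70 members, 12 were higher and 35 lower at day 25, where 51.0% of all features were called, 22.8% higher and 28.2% lower. The members' median was -0.62 against -0.04 for all features and -0.41 for C/D box snoRNAs, of which 23 rose and 73 fell. SCARNA14 fell from 251, 245 and 349 RPM to 44.8, 51.8 and 54.0 RPM (-2.58, SE 0.13, limma adjusted p = 6.82e-20). SCARNA16 fell from 166, 203 and 211 RPM to 39.4, 24.9 and 24.5 RPM (-2.82, SE 0.18, limma adjusted p = 8.22e-17), and Snora81 fell from 11.6, 12.8 and 13.8 RPM to 1.79, 1.92 and 2.45 RPM, which are 1, 1 and 2 reads (-2.26, SE 0.22). Snora52 rose from 295, 260 and 193 RPM to 561, 612 and 676 RPM (1.19, SE 0.13, limma adjusted p = 3.79e-10), SNORA70 on chromosome 16 by 1.496 (SE 0.23) and SNORA49 by 1.37 (SE 0.23). The scaRNAs had 0 of 13 higher and 9 lower, and the snoRNAs 12 of 57 higher and 26 lower. Between control day 1 and day 25 the summed mesenchymal microRNAs went from 9177 to 11333 RPM down to 954 to 1050 RPM and the ESC microRNAs from 115767 to 122811 RPM up to 175306 to 208803 RPM, and their part in the result was not tested. Day 25 libraries were also the shallowest of the time course, and day and depth cannot be told apart here.

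The next question was which fragments were bound by AGO2, taken as the level in AGO2 immunoprecipitates over that in day 9 total RNA of the same genotype. Most members were low in AGO2. The members had been chosen by their level in total RNA, the day 9 libraries included. The filter of this fit could also be met by day 9 total RNA alone. Within the AGO2 libraries only 5 members and 1 C/D box snoRNA met it. A lower level in AGO2 was thus favoured by the choice, and the counts of lower members and C/D box snoRNAs are descriptions. In control cells 56 of the 60 members tested were lower and 3 higher, where 90.2% of the 1564 features tested were called, 79.5% lower and 10.7% higher. In Dnmt1 KO cells 55 were lower and 3 higher, where 89.8% of all features were called, 74.8% lower and 15.0% higher. The ranges of 59 and 58 of the 60 members lay apart from those of total RNA, against 92.1% and 89.8% of all features. The median difference of the members was -4.77 in control and -4.15 in Dnmt1 KO cells on the log2 scale, compared with -3.44 and -3.33 for all features and -8.26 and -7.77 for C/D box snoRNAs, of which all 130 tested were lower in each genotype. The same 3 members, Snora36b, Snora41 and Scarna3a, were higher in both genotypes. Of the 70 members, 27 in control and 49 in Dnmt1 KO cells stood at or under the level of 3 reads a library in the AGO2 libraries, of which the Dnmt1 KO ones held 1152390 to 11520133 reads and the control ones 11497718 to 25423038.

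**Figure D3:**
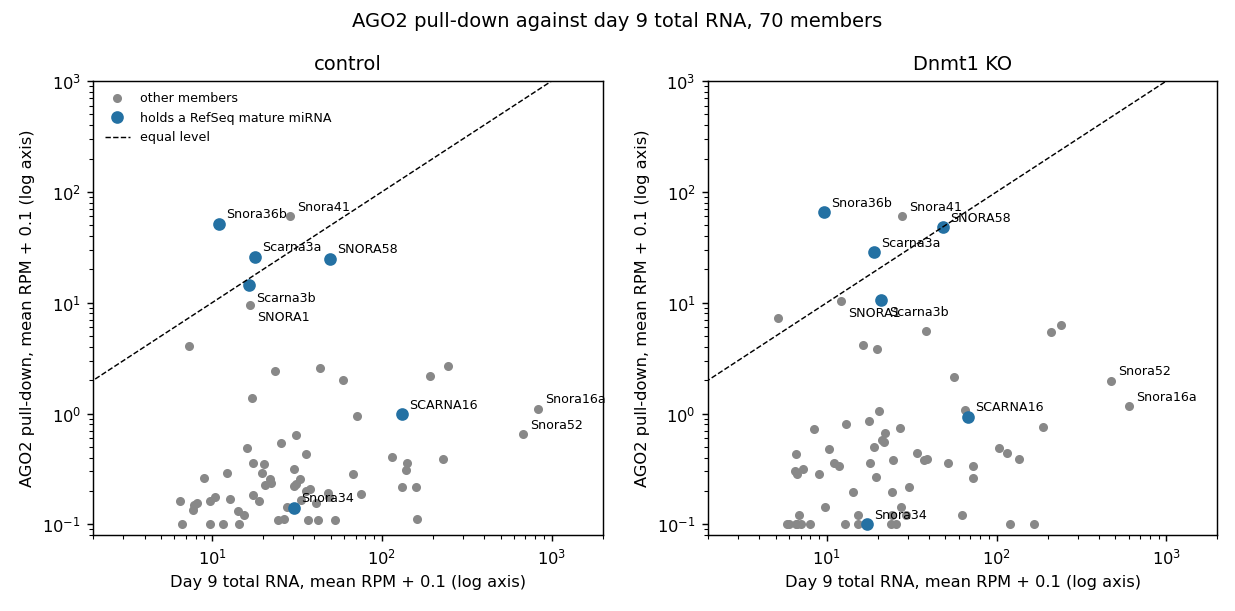
Mean RPM + 0.1 of each member in day 9 total RNA (horizontal, log axis, n = 3) and in AGO2 immunoprecipitates (vertical, log axis, n = 4), 1 panel per genotype, with equal levels drawn as a dashed line and members that hold a mature microRNA in blue. Snora36b, Snora41 and Scarna3a lie above the line in both genotypes, while Snora16a and Snora52 lie far below it.

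Snora36b, which holds both arms of miR-664, measured 53.2, 40.8, 59.4 and 53.2 RPM in control AGO2 libraries against 11.8, 8.82 and 11.99 RPM in day 9 control total RNA, a difference of 2.15 (SE 0.26, limma adjusted p = 9.97e-07). In Dnmt1 KO cells it measured 81.6, 80.4, 37.9 and 60.8 RPM against 10.985, 9.90 and 7.85 RPM (2.60, SE 0.26, limma adjusted p = 1.05e-07). Every AGO2 library lay above every total RNA library, and the ratio of mean RPM was 4.74 in control and 6.82 in Dnmt1 KO cells. Snora41, in which no mature microRNA sequence was found, measured 59.5, 67.7, 53.4 and 61.3 RPM in control AGO2 against 26.8, 28.4 and 30.3 RPM (1.05, SE 0.21, limma adjusted p = 1.84e-04). In Dnmt1 KO cells it measured 44.3, 51.5, 83.9 and 62.0 RPM against 29.9, 25.9 and 27.4 RPM (1.06, SE 0.21, limma adjusted p = 1.80e-04), so its groups did not overlap either. Scarna3a, with both arms of miR-1843b, measured 29.8, 25.135, 24.1 and 24.2 RPM against 16.0, 16.9 and 20.4 RPM in control cells (0.52, SE 0.18, limma adjusted p = 0.0132) and 28.6, 35.4, 23.7 and 26.5 RPM against 20.7, 16.8 and 18.9 RPM in Dnmt1 KO cells (0.57, SE 0.18, limma adjusted p = 7.67e-03). Scaled to microRNA reads, Snora41 was no longer called in either genotype and the difference of Scarna3a turned negative, while that of Snora36b kept its direction.

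The other members with a mature microRNA divided. Scarna3b measured 12.8, 11.7, 13.3 and 19.2 RPM in control AGO2 against 19.8, 14.3 and 15.1 RPM, groups that overlapped (-0.20, limma adjusted p = 0.368), and 10.4, 7.72, 10.97 and 12.6 RPM against 20.2, 19.4 and 23.1 RPM in Dnmt1 KO cells, where it was lower (-0.95, limma adjusted p = 4.92e-04). SNORA58 measured 24.7, 17.4, 26.7 and 30.3 RPM against 43.0, 53.5 and 50.7 RPM in control cells (-0.98, limma adjusted p = 7.43e-04), and 51.2, 59.8, 33.5 and 47.2 RPM against 46.5, 50.3 and 48.4 RPM in Dnmt1 KO cells (-0.04, limma adjusted p = 0.858). SCARNA16 differed from these, at 0.435 to 1.116 RPM in control AGO2 against 119 to 150 RPM in total RNA (-6.14), and at -5.23 in Dnmt1 KO cells. Snora34 stood at or under the level of 3 reads a library in AGO2 of both genotypes and was at least 115-fold lower in control and at least 6.58-fold lower in Dnmt1 KO cells. As a group the 6 had a median difference of -0.59 in control and -0.50 in Dnmt1 KO cells, and the other members tested had -4.77 and -4.21. SNORA1, with no mature microRNA, was also near its level in total RNA, at -0.77 in control (limma adjusted p = 0.0131) and -0.25 in Dnmt1 KO cells (limma adjusted p = 0.381). SNORA5 starting at 6519811, also without one, had a ratio of mean RPM of 0.545 in control cells (3.95 against 7.25 RPM) and 1.42 in Dnmt1 KO cells (7.18 against 5.05 RPM), on 321 and 129 AGO2 reads.

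The 6 members with a mature microRNA took 48.3% to 59.8% of the members' RPM in control AGO2 and 44.7% to 62.4% in Dnmt1 KO AGO2. They took 5.22% to 5.78% in day 9 control total RNA and 4.53% to 5.17% in day 9 Dnmt1 KO total RNA. With Snora41 added, the shares in AGO2 came to 81.9% to 85.5% in control and 73.3% to 81.6% in Dnmt1 KO libraries. Of these 7, Snora34 with 0.041 and 0 RPM and SCARNA16 with 0.883 and 0.839 RPM, as means of control and Dnmt1 KO AGO2, added little, so 5 members carried nearly all of the share.

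**Figure D4:**
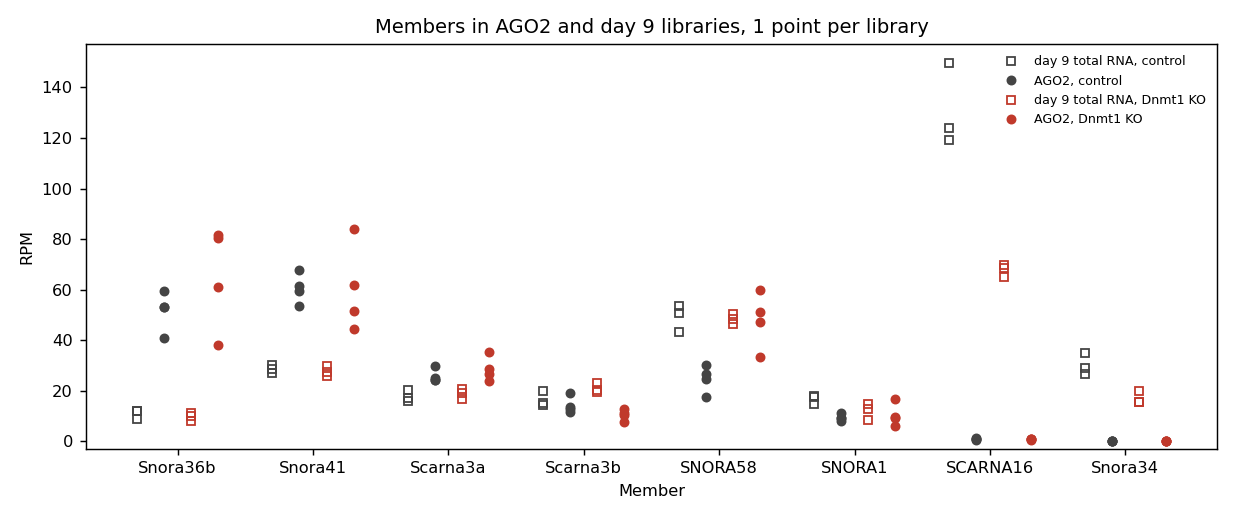
RPM (linear axis) of Snora36b, Snora41, Scarna3a, Scarna3b, SNORA58, SNORA1, SCARNA16 and Snora34 in each AGO2 library and each day 9 total RNA library, by genotype. For Snora36b the 8 AGO2 libraries lie between 37.9 and 81.6 RPM, all above the 6 total RNA libraries at 7.85 to 11.99 RPM.

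The 2 most abundant members in total RNA, Snora16a and Snora52, were among those low in AGO2. Snora16a measured 0.582 to 2.203 RPM in control AGO2 against 777 to 861 RPM in total RNA (-8.75, SE 0.33, limma adjusted p = 7.06e-13), and 0 to 1.93 RPM in Dnmt1 KO AGO2 against 551 to 697 RPM (-8.28, SE 0.33, limma adjusted p = 1.41e-12). Its ratio of mean RPM was 819-fold lower in control and 565-fold lower in Dnmt1 KO cells, resting on 89 and 20 AGO2 reads in all. Snora52 stood at -8.78 in control and -7.69 in Dnmt1 KO cells, and Scarna6 at -7.53 in control cells. Snora44 and SNORA18, the next members by RPKM, ranked 20 and 21 of 70 by their ratio in control cells. Immunoprecipitates and total RNA differ in preparation as well as in AGO2 binding, which cannot be told apart within these libraries, and microRNA features took 97.9% to 99.0% of the AGO2 reads.

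Between genotypes, 5 members had enough reads to be tested within the AGO2 libraries, and 0 of the 5 passed in limma with Benjamini-Hochberg adjustment, where 36.4% of all features did; 2 of the 5 had an unadjusted p under 0.05. SNORA58 had a higher level in all 4 Dnmt1 KO AGO2 libraries than in the controls, with a difference of 0.67 (SE 0.28, limma adjusted p = 0.0908), and it was the 1 member of the 5 whose ranges did not overlap, against 37.5% of all features. Scarna3b differed by -0.65 (SE 0.25, limma adjusted p = 0.0724) with overlapping ranges. Snora41 differed by -0.29 (limma adjusted p = 0.379), Scarna3a by -0.12 (limma adjusted p = 0.708) and Snora36b by 0.03 (limma adjusted p = 0.967). With the replicate number as a block Scarna3b passed (-0.65, limma adjusted p = 0.0443), but it did not when replicates were averaged in pairs, 1 with 2 and 3 with 4 (limma adjusted p = 0.382), and with library totals SNORA58 passed (0.92, limma adjusted p = 0.0220).

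Germ cells gave 4 libraries of 1 sample each, so their values carry no test. All 4 PGC libraries lay above all 36 ESC libraries for 10 members, where 10.3% of all features did, and below them for 5, where 6.35% did. Scarna3a stood at 57.1 to 116 RPM in PGCs against 5.76 to 22.9 RPM in ESCs, Snora36b at 42.5 to 65.5 RPM against 2.45 to 17.2 RPM, and Snora41 at 55.7 to 74.98 RPM against 6.43 to 39.3 RPM. Scarna3a, Snora36b and Snora41 were also the members called higher in AGO2, which is given as a description. Other members above the ESCs were far below total RNA in AGO2. Among them, Snora52 and SNORA48 had ratios of mean RPM of 8.2e-04 and 8e-05 in control cells. Scarna3b, SNORA58 and SNORA1, whose AGO2 ratios were among the higher ones, were not apart from ESCs in PGCs. Snora52 stood at 870 to 1087 RPM against 193 to 694 RPM, and SNORA5 starting at 6519811 at 20.1 to 38.3 RPM against 0 to 10.5 RPM. SNORA48, Snora68, Snora28, SNORA42 starting at 121655019 and SNORA51 were also above. Below were Snora44 at 11.015 to 41.5 RPM against 98.1 to 437 RPM, SCARNA16 at 2.02 to 7.50 RPM against 14.47 to 405 RPM, SNORA4 at 1.34 to 6.92 RPM against 19.2 to 146 RPM, Snora73a at 42.0 to 96.0 RPM against 121 to 258 RPM and SNORA74 at 7.46 to 14.1 RPM against 14.6 to 49.02 RPM. Snora16a was not apart, at 339 to 542 RPM against 269 to 1402 RPM.

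**Figure D5:**
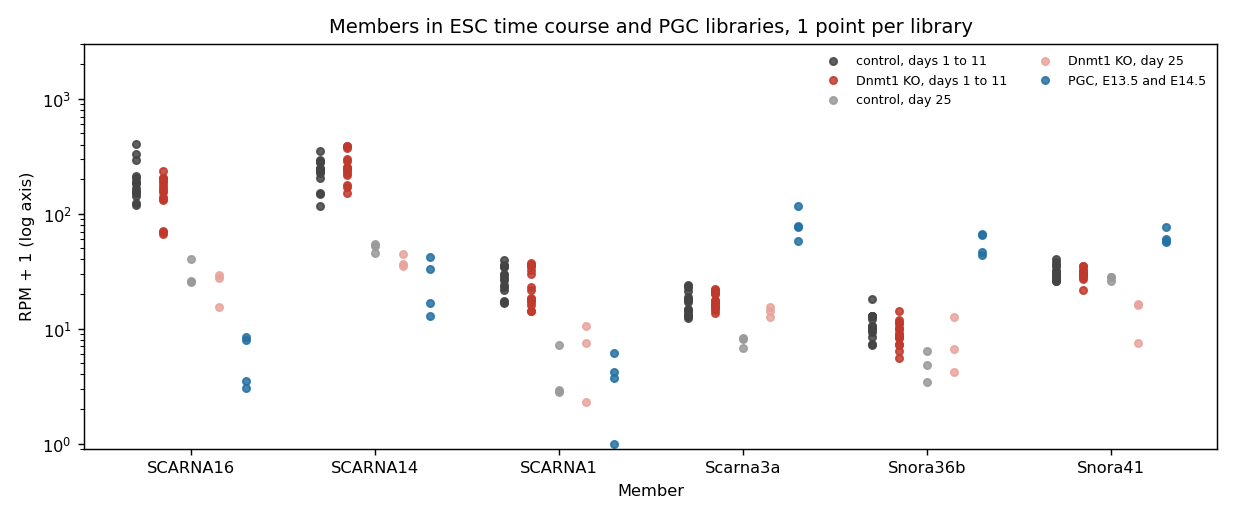
RPM + 1 (log axis) of SCARNA16, SCARNA14, SCARNA1, Scarna3a, Snora36b and Snora41, 1 point per library, for ESCs by genotype at days 1 to 11 and day 25 and for the 4 PGC libraries. Scarna3a at 57.1 to 116 RPM and Snora36b at 42.5 to 65.5 RPM in PGCs lie above every ESC library, and SCARNA16 at 2.02 to 7.50 RPM lies below.

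Genes for the proteins that work with these RNAs, such as Dkc1, which codes for dyskerin, and Ruvbl2, which codes for a helicase that helps assemble the particles, were measured only as fragments. Of 13 genes listed, 12 were in the table, at mean levels of 1.28 to 7.48 RPM, and only Dkc1 and Ruvbl2 passed the filter on low values. In 18 tests of those genes 0 passed in limma with Benjamini-Hochberg adjustment, with a lowest adjusted p of 0.137.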

How the data were processed

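Small RNA from ESCs labelled E14 and PGCs was sequenced, and the deposited table gives RPKM values that the authors computed per annotated feature. Reads had been trimmed with Trim Galore 0.3.5 and aligned with Bowtie2 2.2.9 to NCBIM37. The paper names SeqMonk as the tool that counted small RNA reads. How the counting used strand is not given in the sources used here. RPKM was turned into RPM with the feature's span, and reads were recovered from the step of 1 read. Features with at least 10 RPM in at least 3 libraries were scaled by TMM, put on the log2(RPM + 1) scale and tested with limma 3.58.1 in R 4.3.3, in 1 fit of the 36 time course libraries, a fit of the 8 AGO2 libraries, and a fit of AGO2 against day 9 total RNA on library totals, with Benjamini-Hochberg adjustment over all features tested. A count model was not used, since the values are RPKM. On simulated data for the time course fit, with 2582 features, 75.5% of 200 features changed 2-fold at day 9 were recovered, with 4 false calls among the unchanged features. The simulated noise was independent, with 1 spread per feature for all days. It therefore does not show how the fit behaves where the spread differs between days, such as at day 25. Libraries with an R1 suffix, whose relation to the others is not stated in the sources used here, served only as an alternative, and those of PGCs were not used. They held fewer reads, such as 657805 against 2064084 for control replicate 1 of day 1. MicroRNA features took 54.2% of the R1-suffixed male E14.5 PGC library. They took 40.0% of the male E14.5 library without the suffix and 55.6% of the male E13.5 one. Same-numbered AGO2 libraries deviated together (correlations 0.194 to 0.386 over 4 pairs), and the pairing comes from these data, but only 2 of the 4 correlated best with their own number, as libraries 1 and 2 of either genotype correlated with each other and so did 3 and 4; time course numbers did not (-0.067 to 0.047 over 18 pairs). Members named with values were Snora16a, the 5 highest in RPKM, all scaRNAs, those next to the cut-off, up to 3 called members per direction with the smallest adjusted p in each comparison and the 3 highest and 3 lowest called in AGO2; the members that hold a microRNA, SNORA1 in AGO2, the Snhg12 and Taf1d members and the PGC members were named after their values were seen. Members and lists were chosen with earlier results of these data known. Alternatives were other scalings, another pseudocount, no filter, single days, blocks and left-out libraries. Sequences came from the NCBIM37 genome and RefSeq.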

Additional observations from a re-analysis of the deposited data

Results flagged for a closer look

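In AGO2 control replicate 4, Snora16a stood at 2.203 RPM where the other 3 libraries held 0.582 to 0.643 RPM, and Scarna6 at 0.865 RPM where the others held 0.049 to 0.138 RPM. Both lie further from the rest than the 95% critical value for 4 samples allows, 2 of 24 groups examined did so, and chance gives about 1 in 20.

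The effect of Dnmt1 loss at day 25 differed from that at day 9 by an interaction term in limma for 6 of the named members. They were named for the smallest adjusted p in this comparison, so this is no further result, and 25.8% of all features were called. Scaled to C/D box snoRNAs, Scarna6 and SNORA72 lost the call (limma adjusted p = 0.314 and 0.0987). Without the filter on low values, SNORA1 and Snora41 lost it (limma adjusted p = 0.0533 and 0.0734). The difference was 0.72 for Scarna6, 1.01 for SNORA72 and 2.02 for SNORA1, and it was -1.71 for Scarna10, -0.80 for Snora44 and -1.04 for Snora41, with Benjamini-Hochberg adjusted p between 4.43e-04 and 6.01e-03.

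The 2 libraries titled "none" stand in no comparison. The members took 0.250% of the reads in the control library (95% Wilson interval 0.212% to 0.295%) and 0.305% in the Dnmt1 KO library (0.214% to 0.435%), above the 0.0198% to 0.0321% of the AGO2 libraries. Their titles give no more than this word. In the methods of the study a pull-down that lacked the serum served as control.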

How the results depend on the processing

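Members called changed by over 1.5 times under some settings, and the cause was not tested except where fewer libraries were used. Without the filter on low values, which tests more features, the calls were 5 at day 1, 0 at day 3, 2 at day 6, 3 at day 9, 0 at day 11, 9 at day 25, 6 for the mean over days and 5 for day 25 minus day 9. Fitted 1 day at a time they were 6, 3, 23, 27, 7 and 2 at days 1, 3, 6, 9, 11 and 25. The R1-suffixed libraries gave 0, 2, 2 and 1 at days 3, 6, 9 and 11. Scaled to C/D box snoRNAs, which moved the median of all features to 0.34 at day 6, 0.19 at day 9 and -0.31 at day 25, the calls were 2 at day 3, 2 at day 6, 6 at day 9 and 9 for day 25 minus day 9. Library totals gave 6 at day 6, and at day 3 median-ratio factors gave 2, a pseudocount of 5 RPM 3 and the replicate block 3, where time course samples share only a number. Leaving out single libraries gave 1 to 10 calls at day 1, 0 to 3 at day 3, 7 to 11 at day 6, 5 to 11 at day 9, 1 to 2 at day 11, 13 to 23 at day 25, 9 to 19 for the mean over days, 13 to 20 for day 25 minus day 9, 42 to 47 for day 25 against day 1 and 58 to 59 for each AGO2 enrichment. Day 9 fell to 5 or 6 without control replicates 2 or 3 or Dnmt1 KO replicates 1 or 3, day 11 to 1 without control replicates 1 or 3 or Dnmt1 KO replicate 3, and the mean to 9 without day 9 control replicate 3. Between AGO2 genotypes library totals gave 1 call, median-ratio factors 1 (Scarna3b), the replicate block 1 (Scarna3b) and single left-out libraries 0 to 1, with 1 without Dnmt1 KO replicate 4; the pairing changed no other call there.

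Signs turned for SNORA74 at day 11 with R1-suffixed libraries (0.0734) and for Snora16a at day 25 scaled to C/D box snoRNAs (-0.15). AGO2 over total RNA in control cells turned for SNORA58 with TMM scaling (0.63), for Scarna3b with TMM scaling (1.35) and without microRNA features (0.72), and for Scarna3a scaled to microRNA reads (-0.23). In Dnmt1 KO cells it turned for SNORA58 with TMM scaling (1.04), without microRNA features (0.49), without AGO2 Dnmt1 KO replicate 3 (0.12, single left-out libraries giving -0.157 to 0.12) and with R1-suffixed libraries (0.25), for Scarna3b with TMM scaling (0.0904) and for Scarna3a scaled to microRNA reads (-0.15). Scaled to microRNA reads Snora41 was at 0.29 and 0.33 (limma adjusted p = 0.188 and 0.140). Snora36b stayed called under all 14 alternatives in each genotype, at 1.42 to 3.71 in control and 1.91 to 3.599 in Dnmt1 KO cells. Of the values of named members under the alternatives, 957 kept direction and side of the threshold, 62 lost the call, 3 gained it and 12 turned. At day 25 3 reads equal 3.68 to 5.76 RPM, which limits the lowest members.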
